A study of Mus musculus with 5 samples.

Results

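The genes described here are 38 genes of DNA replication and mitosis, followed in single cells of mouse gut organoids, which are cultures of intestinal epithelium grown in a gel. They were chosen by their known function, 16 as genes of DNA synthesis (S phase) and 22 as genes of the G2 and M phases. The selection rule itself uses no measured value, but the choice was made with earlier results of these data known. All 38 had UMIs (unique molecular identifiers, each counting 1 captured transcript) in all 5 libraries, out of 18323 genes with a UMI in any cell kept, and the lowest total of a member in a library was 94 UMIs.

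The series compared organoids with and without the kinase LKB1, encoded by Stk11, by SORT-seq, a method that sorts single cells into the wells of a plate and counts transcripts by a 3′ tag. There were 5 libraries, each 1 plate of 384 wells: intestinal organoids of fetal origin with the genotype WT (fetal), small intestinal organoids of genotype Lkb1 -/- with the title mark Cys (Cys), others of genotype Lkb1 -/- with the title mark Bud (Bud), organoids of genotype Lkb1 +/- (het), and small intestinal organoids with the genotype WT (WT). The medium given for all of them contained Egf, R-spondin and Noggin. The labels explain neither title mark, nor which piece of Lkb1 was edited, nor how many animals, clones or cultures stood behind a plate. With 1 library per group no value has a replicate check, so every comparison describes the 2 libraries it names, and the intervals in brackets are 95% intervals that cover counting error only.

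Before a cell copies its DNA, the MCM helicase is loaded onto origins of replication, and during S phase it opens the double helix for polymerases held on DNA by the PCNA clamp. Later, B-type cyclins and the kinase CDK1 drive entry into mitosis, and spindle, centromere and chromosome passenger proteins divide the copied chromosomes. In the gut epithelium these genes are known as marks of the cycling stem and transit-amplifying cells of the crypt, and they are switched off as enterocytes mature.

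Genes of the 2 phases are known to be read from promoters with different motifs. E2F factors bind sites upstream of many S phase genes, whereas CHR elements (cell cycle genes homology regions) and CCAAT boxes are known from promoters of G2 and M phase genes. RefSeq promoters of build GRCm38.p6, the build of the deposited tables, were matched by symbol for 32 of the 38 members. Mcm4, Gins2, Aurkb, Tpx2, Ccna2 and Incenp are the other members. The 4 promoters printed here belong to members on which the results turn. Mcm5 and Mcm6 are S phase members with several E2F matches, and Ccnb2 and Top2a are the G2 and M phase members that differed in opposite directions between the fetal and the WT library. Each line gives the 250 bases before the transcription start, 5′ to 3′ on the gene's own strand, with motif matches in capitals.
Mcm5, chr8:75109259-75109508, plus strand: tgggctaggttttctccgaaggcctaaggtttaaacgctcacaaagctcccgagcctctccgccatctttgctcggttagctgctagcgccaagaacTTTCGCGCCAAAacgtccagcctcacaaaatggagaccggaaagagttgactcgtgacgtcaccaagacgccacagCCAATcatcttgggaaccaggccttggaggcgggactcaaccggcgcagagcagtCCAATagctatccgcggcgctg
Mcm6, chr1:128359706-128359955, minus strand: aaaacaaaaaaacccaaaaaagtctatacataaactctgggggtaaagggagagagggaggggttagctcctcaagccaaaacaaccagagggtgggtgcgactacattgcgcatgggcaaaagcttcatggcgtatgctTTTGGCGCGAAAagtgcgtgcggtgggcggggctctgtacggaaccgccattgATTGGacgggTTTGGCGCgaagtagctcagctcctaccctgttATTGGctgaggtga
Ccnb2, chr9:70421555-70421804, minus strand: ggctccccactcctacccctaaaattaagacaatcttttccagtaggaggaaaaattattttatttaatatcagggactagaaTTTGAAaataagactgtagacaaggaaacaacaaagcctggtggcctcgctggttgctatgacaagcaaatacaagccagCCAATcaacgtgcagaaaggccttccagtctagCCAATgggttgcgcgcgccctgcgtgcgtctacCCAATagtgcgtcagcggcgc
Top2a, chr11:99024190-99024439, minus strand: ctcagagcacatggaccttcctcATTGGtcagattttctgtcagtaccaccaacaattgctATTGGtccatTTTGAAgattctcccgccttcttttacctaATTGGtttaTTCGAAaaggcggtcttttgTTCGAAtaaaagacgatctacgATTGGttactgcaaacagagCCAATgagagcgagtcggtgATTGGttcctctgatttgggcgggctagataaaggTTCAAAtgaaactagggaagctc

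The words searched on both strands were TTTCCCGC, TTTCGCGC, TTTGCCGC and TTTGGCGC for E2F, TTTGAA and TTCGAA for the CHR, and CCAAT. Overlapping matches were each counted, as with the pairs of E2F matches on opposite strands in Mcm5 and Mcm6. Counts are of promoters and not of genes. The 16 promoters of S phase members belonged to 14 genes, with 2 for Mcm7 and 2 for Uhrf1. The 19 of G2 and M phase members belonged to 18 genes, with 2 for Prc1. An E2F word stood in 6 of 16 promoters of S phase members (37.5%), those of Cdc6, Hells, Mcm5, Mcm6, Mcm7 and Uhrf1. It stood in 1 of 19 promoters of G2 and M phase members (5.26%), that of Cdk1, and in 1.86% of all 32851 promoters. For the CHR the order was the other way round, with 8 of 19 G2 and M phase promoters (42.1%), 2 of 16 S phase promoters (12.5%) and 17.1% of all promoters. The 8 belonged to Mki67, Top2a, Ccnb2, Cdk1, Ube2c, Hmgb2, Kif11 and Prc1. CCAAT was present in 17 of 19 G2 and M phase promoters (89.5%) and 12 of 16 S phase promoters (75%), against 33.8% of all promoters. The Ccnb2 promoter held 3 such boxes, beginning 87, 54 and 21 bases before the start. A match describes these letters and does not show that a factor binds there.

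After wells under 1000 UMIs were left out, 371 fetal, 359 Cys, 318 Bud, 351 het and 302 WT cells remained, with 4035219 (WT) to 5865507 (fetal) UMIs per library and medians of 10414 (Cys) to 14637 (fetal) UMIs per cell. All 384 well names were shared by the 5 libraries, being positions on a plate. Stk11 had 9.03 CPM (UMIs of a gene scaled to a common library total, the unit of all levels here) in Cys, 11.7 in Bud, 14.1 in het, 16.03 in fetal and 20.6 in WT. Its 3′ tag may lie outside the edited part, so it does not check the genotypes. All 6 epithelial markers were found in every library, at a sum of 4665 to 6017 CPM, while 6 immune markers summed to 2.05 to 25.7 CPM and 7 mesenchymal ones to 1.49 to 3.33 CPM. The 5 endothelial markers summed to 0.682 to 4.29 CPM in 4 libraries and to 333 CPM in Cys, where Tek alone gave 333 CPM. Damaged cells often show the nuclear RNA Kcnq1ot1, and wells with over 2% of it made up 0.539% of cells in fetal, 6.13% in Cys, 13.5% in Bud, 17.1% in het and 7.28% in WT. Outside fetal, where there were only 2 of them, those wells held less of both gene lists, at 638 to 1220 CPM for the S phase list against 2098 to 2867 CPM in the other wells. Leaving them out gave 1 member lower in Cys against het in place of 0, beside 21% of all genes. It moved no other count of called members in the whole libraries by over 1.5 times. Cys also had 2 wells of over 100000 UMIs, with 12.0% of its UMIs, and a single cell gave up to 25% of a member's Cys total, so Cys results are given without them where that matters.

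The S phase genes were lowest in the fetal organoids and, for most genes, highest in WT. Fetal had the lowest level of 15 of the 16 S phase members, and WT had the highest level of 11. Bud was highest for Mcm2, Mcm5 and Hells, het for Mcm6, and Cys for Rrm2. Where WT was highest, its interval was clear of the next library only for Mcm7, Pcna, Ung, Cdc6 and Gins2. The highest intervals of Bud and het overlapped the next library for each of their genes. Where fetal was lowest, it overlapped its neighbour for Mcm4, Ung and Gins2. The plot of levels by library shows this as a row of low fetal points.

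Pcna, the sliding clamp of DNA polymerases, had 358 CPM in fetal (343–374), 510.3 in Cys (491–531), 698 in Bud (673–724), 568 in het (546–591) and 853 in WT (825–882). No 2 libraries overlapped, and the order ran from WT over Bud, het and Cys to fetal. The MCM genes encode the 6 subunits of the replicative helicase. Mcm5 had 67.0 CPM in fetal, 135 in Cys, 188 in Bud, 138 in het and 179.9 in WT, so that Bud with WT, and Cys with het, formed pairs whose intervals overlapped. Mcm7 had 172 CPM in fetal, 235 in Cys, 269.8 in Bud, 209 in het and 333 in WT. Mcm6 took another order, with 142 CPM in fetal, 188 in Cys, 271 in Bud, 278 in het and 262 in WT. Here het, Bud and WT were neighbours with overlapping intervals, and Cys and fetal lay below them. Mcm2, Mcm3 and Mcm4 ranged over 59.8 to 80.3 CPM in fetal, 92.9 to 112 in Cys, 112 to 139 in Bud, 91.7 to 109 in het and 129 to 132 in WT.

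Of the genes that prepare origins, Cdc6, which loads the helicase, had 16.03 CPM in fetal, 25.9 in Cys, 30.0 in Bud, 26.6 in het and 46.8 in WT. WT stood above the 4 others, and Bud, het and Cys could not be ordered within counting error. Gins2, a subunit of the active helicase, had 30.7 CPM in fetal, 39.1 in Cys, 34.5 in Bud, 35.5 in het and 53.0 in WT, again with WT apart. Uhrf1 and Hells act in the upkeep of DNA methylation on copied chromatin. Uhrf1 had 43.3 CPM in fetal, 60.6 in Cys, 83.6 in Bud, 59.6 in het and 84.5 in WT, and Hells had 51.3 CPM in fetal, 115 in Cys, 129 in Bud, 88.0 in het and 119 in WT.

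Among genes of nucleotide supply and repair, Rrm2 stood apart. It encodes the small subunit of ribonucleotide reductase, which makes the building blocks of DNA, and lies on chr12:24708254-24714146. Rrm2 had 103 CPM in fetal, 218 in Cys, 126 in Bud, 67.6 in het and 149 in WT. It was the only S phase member highest in Cys and the only one lowest in het, and no neighbours in its order overlapped. Its partner Rrm1, the large subunit, had 63.6 CPM in fetal, 103 in Cys, 117 in Bud, 98.3 in het and 132 in WT, with Cys overlapping both Bud and het. Ung, which removes uracil from DNA, had 24.9 CPM in fetal, 32.9 in Cys, 43.8 in Bud, 44.1 in het and 65.4 in WT. Slbp, which binds histone messages, had 62.9 CPM in fetal, 80.3 in Cys, 122 in Bud, 91.2 in het and 123 in WT. Tyms, which makes thymidylate, ranged from 18.6 CPM in fetal to 44.1 in both Bud and WT.

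The G2 and M phase genes showed more than one order. Fetal had the lowest level of 14 of the 22 and the highest of 6, namely Ccnb1, Ccnb2, Cenpf, Cenpa, Tpx2 and Bub1. WT was highest for 13, Bud for Birc5 and Hmgb2, and het for Mki67. Of the 6 genes highest in fetal, only Ccnb2 and Cenpf had a fetal interval clear of the next library. Where WT was highest, its interval overlapped the next library for Aurka, Plk1, Kif11, Racgap1 and Hmmr. That of Bud overlapped WT for Birc5 and Hmgb2. Where fetal was lowest, it overlapped its neighbour for Cdk1, Aurka, Ccna2 and Racgap1.

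Ccnb2, a B-type cyclin on chr9:70407689-70421554, had 230.3 CPM in fetal, 128 in Cys, 112 in Bud, 77.8 in het and 97.4 in WT. Fetal lay above all other libraries, het lay below all others, and Bud overlapped both Cys and WT. Ccnb1, the other B-type cyclin of the set, had 76.4 CPM in fetal, 75.7 in Cys, 67.9 in Bud, 61.2 in het and 75.6 in WT, and all neighbours in that order overlapped. Cdk1, the kinase both cyclins bind, had 114 CPM in fetal, 144 in Cys, 123 in Bud, 123 in het and 171 in WT. Ccna2, the cyclin of S phase and early mitosis, had 106 CPM in fetal, 137 in Cys, 133 in Bud, 121 in het and 170.5 in WT. For Cdk1 and Ccna2, WT stood clear above the others.

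Among the genes of chromosome structure, Top2a, the topoisomerase that untangles copied DNA, had 112 CPM in fetal, 166 in Cys, 232 in Bud, 232 in het and 328 in WT. Hmgb2, a DNA-bending chromatin protein, had 132 CPM in fetal, 239 in Cys, 372 in Bud, 199 in het and 366 in WT. Top2a had WT on top alone, whereas Hmgb2 had Bud and WT level on top. Mki67, which coats mitotic chromosomes and is the classic proliferation antigen, had 132 CPM in fetal, 213 in Cys, 195 in Bud, 264 in het and 195 in WT, so that het stood clear above all other libraries.

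The chromosome passenger genes and the spindle genes mostly followed the order with WT on top. Aurkb, the passenger kinase, had 23.4 CPM in fetal, 42.4 in Cys, 50.2 in Bud, 45.3 in het and 69.6 in WT. Incenp, its scaffold, had 43.1 CPM in fetal, 69.9 in Cys, 69.3 in Bud, 66.0 in het and 97.1 in WT. Birc5, the third passenger protein of the set, was level in Bud (93.4 CPM) and WT (90.9 CPM). Kif11, the motor that pushes spindle poles apart, had 21.99 CPM in fetal, 54.0 in Cys, 76.4 in Bud, 73.5 in het and 84.5 in WT. Racgap1, needed for the cleavage furrow, had 58.3 CPM in fetal, 71.7 in Cys, 107 in Bud, 70.1 in het and 119 in WT. Tpx2, which activates Aurora A on the spindle, had 88.7 CPM in fetal, 74.1 in Cys, 60.7 in Bud, 63.2 in het and 61.7 in WT, without a clear gap between neighbours. Cenpf, a kinetochore protein, had 72.5 CPM in fetal, 46.0 in Cys, 45.5 in Bud, 57.6 in het and 55.3 in WT. Hmmr, a spindle protein, was the flattest, with 62.2 CPM in fetal, 57.2 in Cys, 54.8 in Bud, 61.7 in het and 63.2 in WT.

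**Figure D1:**
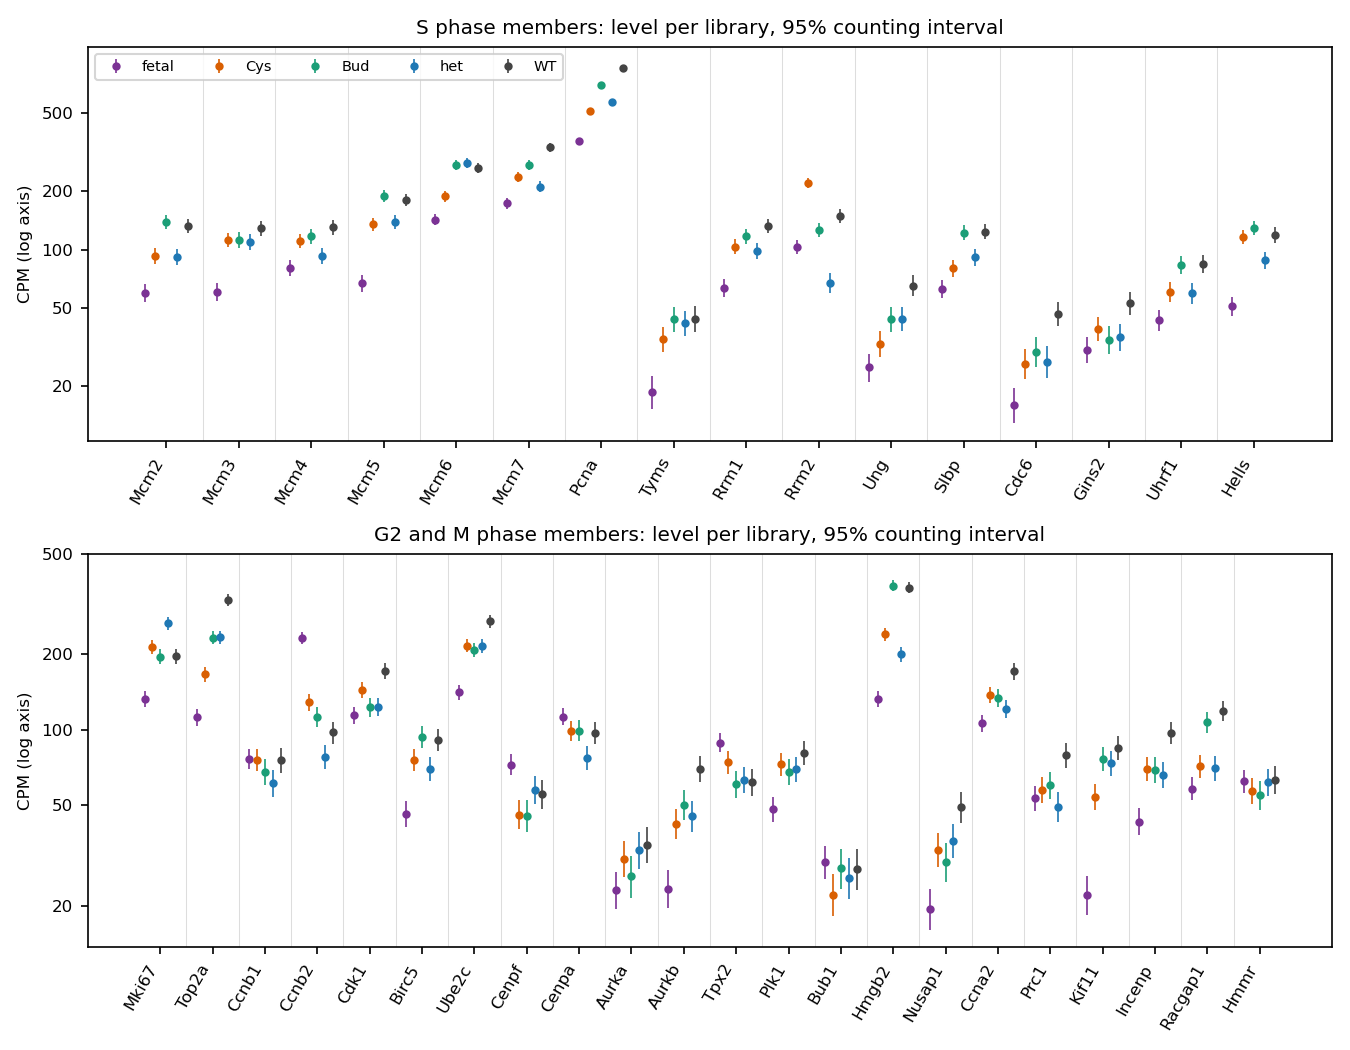
Level of each member in CPM (log axis) in fetal, Cys, Bud, het and WT, left to right within each gene, with 95% counting intervals; the upper panel holds the 16 S phase members and the lower panel the 22 G2 and M phase members. Fetal points lie lowest in 15 of the 16 S phase genes, Rrm2 peaks in Cys at 218 CPM, Ccnb2 peaks in fetal at 230.3 CPM and Mki67 peaks in het at 264 CPM.

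In a comparison of 2 libraries a gene was called higher or lower when its CPM differed at least 1.5-fold and the interval of the ratio excluded 1. The comparisons that share a library are not independent, since WT serves 4 of them, and het, Bud and Cys serve several. Log2 ratios were taken after adding 10 CPM, which understates differences of low genes.

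In fetal organoids against WT, 15 of the 16 S phase members were called lower and none higher, and 13 of the 22 G2 and M phase members lower and 1 higher, against 22.3% of all 12534 measured genes lower and 29.4% higher. The median log2 ratio was −0.93 for the S phase list and −0.60 for the G2 and M phase list, beside 0.06 over all genes. Pcna fell 2.38-fold (2.26–2.52), Mcm5 2.69-fold (2.37–3.04) and Cdc6 2.92-fold (2.27–3.78). Among the mitotic genes Kif11 fell 3.84-fold (3.13–4.74), Aurkb 2.98-fold (2.42–3.68), Top2a 2.93-fold (2.67–3.22) and Hmgb2 2.76-fold (2.53–3.01). Ccnb2 rose 2.36-fold (2.11–2.65). Rrm2, the S phase member not called, had a ratio of 0.689 (0.614–0.773), and Cenpf, with 72.5 CPM in fetal against 55.3 in WT, was not called either. The share of members lower was thus above the background for both lists.

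In Cys organoids against WT, 4 S phase members (Pcna, Ung, Slbp and Cdc6) and 5 G2 and M phase members (Top2a, Aurkb, Hmgb2, Kif11 and Racgap1) were called lower and no member higher. Of all 11782 genes measured, 22% were lower and 17.6% higher, so the share of members lower was near the background while none was higher. Ung fell 1.99-fold (1.63–2.43), Top2a 1.98-fold (1.81–2.16) and Pcna 1.67-fold (1.59–1.76). The median log2 ratio was −0.41 for the S phase list and −0.24 for the other, beside −0.06 over all genes. Without the 2 large Cys wells 13 members were called lower, with Mcm7, Nusap1, Prc1 and Incenp added, beside 22.8% of all genes, a share of members then above the background. With every cell given equal weight, 16 members were called lower, beside 26.2% of all genes.

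In Bud organoids against WT, Cdc6 fell 1.56-fold (1.24–1.97), Gins2 1.54-fold (1.24–1.91) and Nusap1, a spindle microtubule protein, 1.65-fold (1.31–2.08), and no member rose. This is near the 8.67% lower and 5.79% higher among 11541 genes. The median log2 ratios were −0.15 and −0.20 for the S phase and the G2 and M phase list, beside −0.04 over all genes. With every cell given equal weight, 7 members were called lower, beside 12.7% of all genes.

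In het organoids against WT, 4 S phase members (Mcm7, Pcna, Rrm2 and Cdc6) and 4 G2 and M phase members (Aurkb, Hmgb2, Prc1 and Racgap1) were called lower and none higher, against 8.83% lower and 8.43% higher among 11652 genes. The members' share was above that background. Rrm2 fell 2.21-fold (1.92–2.55), Hmgb2 1.84-fold (1.69–2.001) and Pcna 1.502-fold (1.43–1.58). The median log2 ratio was −0.44 for the S phase list and −0.30 for the other, beside −0.02 over all genes. With every cell given equal weight, 14 members were called lower and 1, Mki67, higher, with a log2 ratio of 0.61 in place of 0.42, beside 13.3% lower and 13.2% higher among all genes. The het library was also the one with the most Kcnq1ot1-rich wells (17.1%), and without them the median log2 ratio was −0.42 for the S phase list and −0.28 for the other.

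Against het, the Lkb1 -/- libraries differed in few members. In Bud, Mcm2 (1.51-fold, 1.33–1.72), Rrm2 (1.87-fold, 1.62–2.16), Hmgb2 (1.87-fold, 1.72–2.03) and Racgap1 (1.53-fold, 1.32–1.77) rose and none fell, beside 8.94% higher and 11.7% lower among 11708 genes. In Cys, Rrm2 rose 3.23-fold (2.84–3.68) and Ccnb2 1.65-fold (1.45–1.89), and none fell, beside 18.9% higher and 21.3% lower among 11941 genes, so that called members were rarer than called genes in general. Without the 2 large Cys wells, Mcm6, Top2a and Kif11 were called lower as well, with Top2a 1.61-fold lower, while Rrm2 stayed 3.05-fold higher, beside 21.9% lower and 18.2% higher among all genes. In wells of at least 5000 UMIs, only 2 members were higher in Bud than in het, beside 9.01% of all genes.

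Between the 2 Lkb1 -/- libraries, Cys against Bud, Rrm2 rose 1.73-fold (1.56–1.92), while Slbp fell 1.52-fold (1.33–1.74) and Hmgb2 1.56-fold (1.44–1.68). The background was 19.2% higher and 19.5% lower among 11766 genes, above the share of members on either side. The median log2 ratio was −0.23 for the S phase list and 0.03 for the G2 and M phase list, beside −0.03 over all genes. Without the 2 large wells 6 members were lower, namely Mcm2, Slbp, Top2a, Hmgb2, Kif11 and Racgap1, beside 20% of all genes. With every cell given equal weight 7 were lower, beside 23.4% of all genes, and Rrm2 was no longer called, at a log2 ratio of 0.49 in place of 0.74.

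The balance between the lists differed too. Summed over members, the S phase list had 1355 CPM in fetal, 2095 in Cys, 2525 in Bud, 2041 in het and 2837 in WT, of which Pcna made up 24.4% (Cys) to 30.1% (WT). The G2 and M phase list had 1746 CPM in fetal, 2125 in Cys, 2310.0 in Bud, 2091 in het and 2682 in WT. The ratio of the S phase sum to the other was 0.776 in fetal (0.754–0.799), 0.986 in Cys (0.960–1.01), 1.09 in Bud (1.06–1.12), 0.976 in het (0.948–1.00) and 1.06 in WT (1.03–1.09). Fetal lay below the 4 others, Cys overlapped het, and Bud overlapped WT. Leaving Pcna out gave 0.571 in fetal, 0.746 in Cys, 0.791 in Bud, 0.704 in het and 0.740 in WT, again with fetal lowest. Cys then stood between WT and Bud, whereas with Pcna it stood below both. No intervals were taken for the ratios without Pcna. In these sums, fewer cycling cells and less RNA per cycling cell cannot be told apart, so single cells were examined next.

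To set cells side by side at equal depth, each was thinned at random to 5000 UMIs, which left out 17 fetal, 73 Cys, 88 Bud, 100 het and 82 WT cells with fewer. A list was called high in a cell at 10 or more of its UMIs. The resulting classes are ranges of a score and not cell types, and cells at 8 to 11 UMIs lie near the cut. For the S phase list these numbered 34 of 354 cells in fetal, 49 of 286 in Cys, 29 of 230 in Bud, 28 of 251 in het and 35 of 220 in WT.

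Cells with neither list high made up 66.1% of fetal cells (60.9–71.0), 49.3% of Cys cells (43.4–55.3), 32.2% of Bud cells (26.2–38.6), 45.8% of het cells (39.5–52.2) and 30.9% of WT cells (24.9–37.5). Without thinning, at the same proportion of each cell's UMIs, the shares were 67.1% in fetal, 55.2% in Cys, 43.4% in Bud, 53.8% in het and 38.1% in WT. Fetal held the most such cells, Cys and het came next, and Bud and WT held the fewest, in both ways of counting. Cells with the S phase list high alone made up 9.89% of fetal cells, 21.3% in Cys, 37.4% in Bud, 25.5% in het and 32.3% in WT. Both lists were high in 8.47% of fetal cells, 16.1% in Cys, 17.8% in Bud, 15.1% in het and 26.8% in WT. Cells with the G2 and M phase list high alone differed least, at 15.5% in fetal (11.9–19.7), 13.3% in Cys (9.58–17.8), 12.6% in Bud (8.61–17.6), 13.5% in het (9.57–18.4) and 10.0% in WT (6.37–14.7), and all of these intervals overlapped.

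What the cells with neither list high contained differed between libraries. The 13 enterocyte markers summed in them to 53.1 CPM in fetal, 20.7 in Cys, 2362 in Bud, 15154 in het and 10379 in WT. In the cells with only the S phase list high they summed to 63.5 CPM in fetal, 12.5 in Cys, 837 in Bud, 894 in het and 914 in WT. Enterocyte genes were thus higher in cells with neither list high than in cells with the S phase list high alone in het, WT and Bud, and were low in both classes in fetal and Cys. The 10 stem cell markers in cells with neither list high summed to 1532 CPM in fetal, 1515 in Cys, 1943 in Bud, 1256 in het and 1664 in WT. Median UMIs per cell before thinning were lower there than in the cells with both lists high, at 13876.5 against 17546 in fetal and 12646 against 20666 in WT, and the part of cell depth beyond the thinning was not tested.

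**Figure D2:**
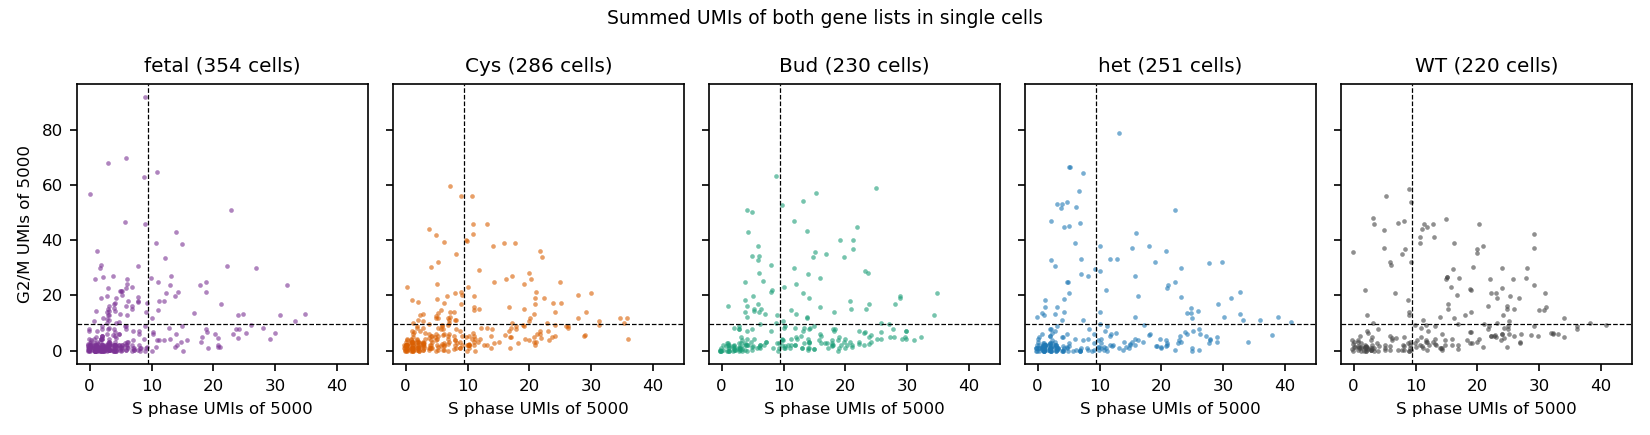
Each point is 1 cell thinned to 5000 UMIs, with its summed UMIs of the 16 S phase members on the horizontal axis and of the 22 G2 and M phase members on the vertical axis, in fetal, Cys, Bud, het and WT from left to right; dashed lines mark the minimum of 10 UMIs. In fetal 234 of the 354 cells fall into the lower left corner, against 68 of 220 in WT.

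Among cells with at least 10 UMIs of both lists together, each was called S-leaning when it held at least 2 S phase UMIs for every 1 of the other list, G2/M-leaning in the opposite case, and balanced in between. Such cells numbered 141 in fetal, 176 in Cys, 168 in Bud, 147 in het and 164 in WT. G2/M-leaning cells made up 47.5% of them in fetal (39.1–56.1), 25% in Cys (18.8–32.1), 26.2% in Bud (19.7–33.5), 32.0% in het (24.5–40.2) and 18.9% in WT (13.2–25.7). S-leaning cells made up 27.0% in fetal (19.8–35.1), 41.5% in Cys (34.1–49.1), 51.2% in Bud (43.4–59.0), 47.6% in het (39.3–56.0) and 48.2% in WT (40.3–56.1). Fetal was the 1 library in which G2/M-leaning cells outnumbered S-leaning ones, 67 to 38. Cells near the cut for G2/M-leaning, on either side of it, numbered 17 in fetal, 19 in Cys, 20 in Bud, 8 in het and 11 in WT. The fetal shift in the summed ratio was therefore also a shift among cells that carried these genes.

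**Figure D3:**
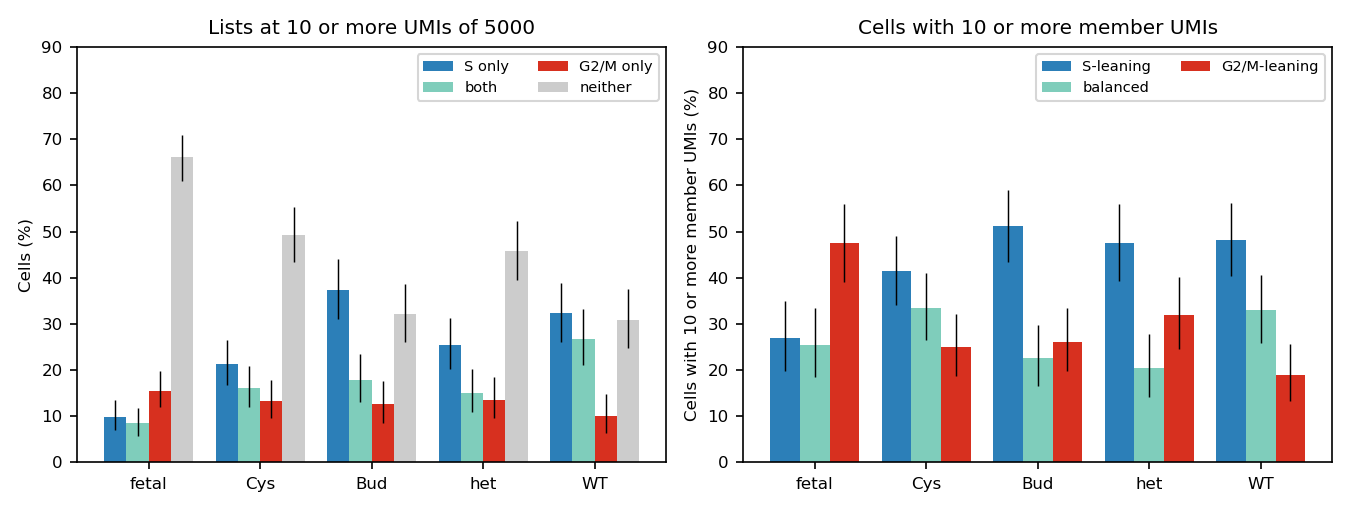
Left, percent of thinned cells with the S phase list, both lists, the G2 and M phase list or neither at 10 or more UMIs of 5000; right, percent of cells with 10 or more member UMIs that were S-leaning, balanced or G2/M-leaning; bars are shares per library (fetal, Cys, Bud, het, WT) with exact binomial 95% intervals. Neither list was high in 66.1% of fetal and 30.9% of WT cells, and G2/M-leaning cells made up 47.5% of such fetal cells and 18.9% of such WT cells.

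Each member was then read in S-leaning and G2/M-leaning cells placed by the other 37 members, its own UMIs left out. All 22 G2 and M phase members were higher in G2/M-leaning cells in all 5 libraries, and 12 of the 16 S phase members were higher in S-leaning cells in all 5, in each case with an interval that excluded 1. The other S phase members were Tyms, Rrm1, Rrm2 and Gins2, and no member went to the opposite side in any library. Apart from Tyms, Rrm1, Rrm2 and Gins2, genes of a phase were thus high together in the same cells in every library.

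The sharpest S phase gene was Ung, with 119 CPM in S-leaning against 2.52 in G2/M-leaning fetal cells, 74.8 against 2.69 in Cys, 90.4 against 2.41 in Bud, 115 against 2.41 in het and 140 against 4.80 in WT. Only 2 or 3 Ung UMIs were counted in the G2/M-leaning cells of any library, so the ratio, 47.2 in fetal (15.7–233) and 29.2 in WT (9.85–143), is known within wide limits. Cdc6 also leaned strongly, at 78.1 against 5.04 CPM in fetal, 48.0 against 2.69 in Cys, 56.0 against 9.63 in Bud, 62.3 against 14.4 in het and 98.7 against 17.6 in WT. Rrm1 leaned in 2 libraries only, fetal and Bud, with 143 against 89.3 CPM in fetal, 129 against 156 in Cys, 157 against 115 in Bud, 149 against 149 in het and 147 against 164 in WT.

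Among the mitotic genes, Nusap1, Cenpf, Aurka and Hmmr were among those that leaned most. Cenpf had 269.5 CPM in G2/M-leaning against 24.8 in S-leaning fetal cells, 180.01 against 9.57 in Cys, 165 against 5.92 in Bud, 207 against 13.0 in het and 215 against 8.94 in WT, a ratio of 10.9 to 27.8. Aurka, the spindle pole kinase, had a ratio of 7.68 in Cys to 24.2 in fetal (8.05–119), the fetal value resting on 3 UMIs in S-leaning cells. Cdk1 and Incenp leaned least, with ratios of 1.60 to 4.02 for Cdk1 and 1.48 to 5.62 for Incenp. In S-leaning cells Cdk1 had 159 CPM in fetal, 132 in Cys, 77.3 in Bud, 92.6 in het and 112 in WT.

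**Figure D4:**
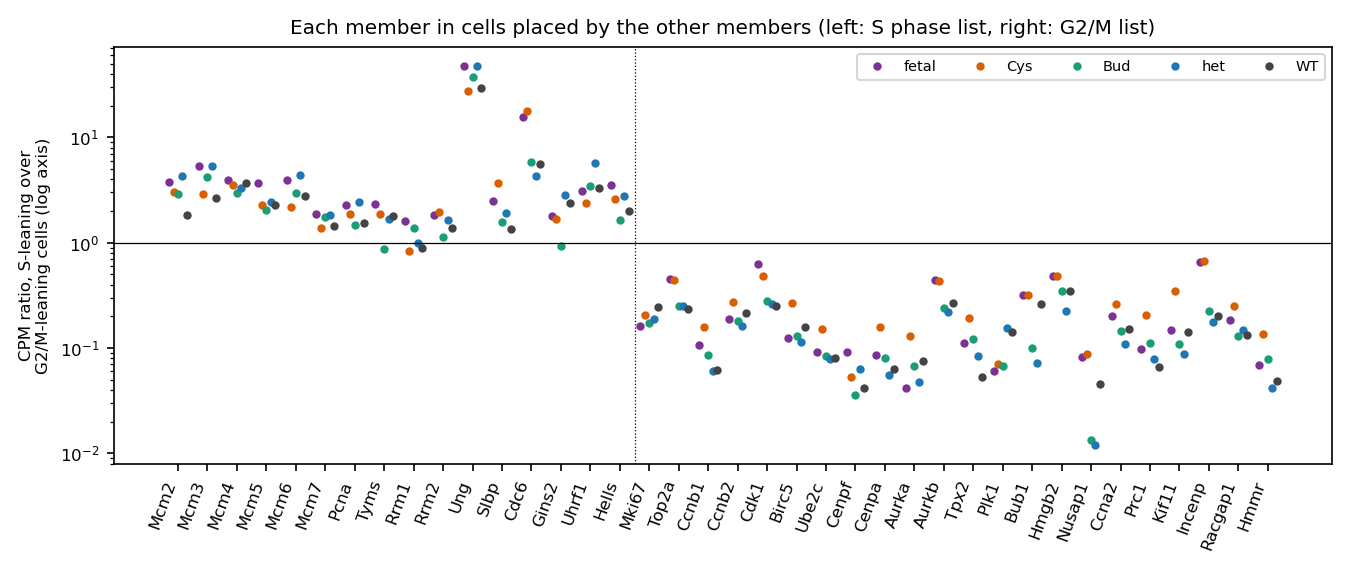
Ratio of CPM in S-leaning over G2/M-leaning cells (log axis) for each member, cells being placed by the other 37 members; points are fetal, Cys, Bud, het and WT from left to right within each gene. Nearly all S phase members lie above 1 and all 22 G2 and M phase members below 1 in every library, with Ung at 27.8 to 47.7 and Cdk1 at up to 0.625.

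Within cells of 1 kind, levels can be compared with less weight of how many cells cycled. The cells were few, 38 S-leaning and 67 G2/M-leaning in fetal, 73 and 44 in Cys, 86 and 44 in Bud, 70 and 47 in het, and 79 and 31 in WT, and the background was taken over genes outside the set. In S-leaning cells of fetal against WT, none of the 16 S phase members was called either way, and their median log2 ratio was −0.10, beside 17.4% lower and 22.9% higher among 10411 other genes. Pcna had 852 CPM in fetal against 1136 in WT S-leaning cells, Mcm6 397 against 421, and Mcm5 243 against 289. Since these cells were placed by the other S phase members, similar S phase levels follow in part from that choice, and the comparison is given as a description only.

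In G2/M-leaning cells of fetal against WT, 10 of 22 G2 and M phase members and 10 of 15 measured S phase members were lower, beside 17.9% lower and 23.3% higher among 10157 other genes. Because these cells were placed by a low share of S phase UMIs, S phase levels in G2/M-leaning cells, here and below, follow in part from that choice. Top2a had 286 CPM in fetal against 763 in WT (2.67-fold lower, 2.31–3.08), Hmgb2 304 against 779 (2.56-fold lower, 2.22–2.95), Ube2c, the ubiquitin enzyme of mitotic exit, 486 against 981 (2.02-fold lower, 1.80–2.27), and Kif11 75.1 against 223 (2.97-fold lower, 2.26–3.92). Ccnb2 had 668 CPM in fetal against 229 in WT (2.92-fold higher, 2.42–3.54) and Tpx2 298 against 194 (1.54-fold higher, 1.25–1.91). Mki67, at 424 CPM in fetal against 409.6 in WT, Cenpa, at 414 against 379, and Hmmr, at 213 against 199.8, were not called. Fetal G2/M-leaning cells thus had more Ccnb2 and less Top2a per UMI than WT ones.

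Ccnb2 was also read outside the leaning cells. In cells with fewer than 10 UMIs of the other members it had 89.0 CPM in fetal, 78.3 in Cys, 47.5 in Bud, 21.7 in het and 38.01 in WT. In S-leaning cells it had 126 CPM in fetal, 84.7 in Cys, 51.8 in Bud, 41.2 in het and 49.3 in WT. Fetal and Cys were highest in all 3 kinds of cells, and het was lowest in 2 of them.

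Rrm2 was highest in Cys in both kinds of cells. In S-leaning cells it had 238 CPM in fetal, 348 in Cys, 137 in Bud, 89.8 in het and 184 in WT, and in G2/M-leaning cells 129.7 CPM in fetal, 177 in Cys, 119.7 in Bud, 54.1 in het and 133 in WT. Cys against het gave 3.87-fold in S-leaning and 3.26-fold (2.32–4.67) in G2/M-leaning cells, close to the 3.23-fold of the whole libraries. The het value was the lowest in both kinds of cells. For Mki67, het stood highest within G2/M-leaning cells, with 773 CPM in het against 409.6 in WT (1.89-fold, 1.63–2.20), and it had 424 in fetal, 585 in Cys and 442 in Bud. Mcm6 was highest in het S-leaning cells, with 641 CPM against 421 in WT (1.52-fold). In S-leaning cells of het against WT, Rrm2, Cdc6, Bub1, Hmgb2 and Ccna2 were lower, beside 6.19% higher and 7.08% lower among 9966 other genes. In G2/M-leaning cells of het against WT, Mcm2, Mcm7, Pcna, Rrm2 and Prc1 were lower, beside 5.32% higher and 6.29% lower among 9146. Pcna there had 394 CPM in het against 733 in WT (1.86-fold lower, 1.63–2.12).

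Bud differed from WT in the same direction in both kinds of cells. In S-leaning cells 3 S phase members (Ung, Cdc6 and Gins2) and 4 G2 and M phase members (Top2a, Aurkb, Plk1 and Nusap1) were lower and none higher, beside 6.97% lower and 3.98% higher among 10093 other genes. Gins2 stood at 38.2 CPM in Bud cells and 84.2 CPM in WT cells, 2.21-fold lower in Bud (1.59–3.08). In G2/M-leaning cells Mcm3, Mcm7, Top2a, Cdk1, Nusap1, Prc1 and Incenp were lower and none higher, beside 7.2% lower and 4.78% higher among 9108. Prc1, which bundles the spindle midzone, stood at 159 CPM in Bud cells and 290.5 CPM in WT cells, 1.82-fold lower in Bud (1.44–2.31). Against het, Rrm2 and Hmgb2 were higher and Tyms, Gins2, Mki67 and Plk1 lower in S-leaning Bud cells, beside 7.04% higher and 8.69% lower among 9975 other genes. In G2/M-leaning cells Pcna, Rrm2 and Hells were higher and Mki67 lower in Bud, beside 6.59% higher and 8.46% lower among 9342. Mki67 had 442 CPM in Bud against 773 in het there (1.75-fold lower, 1.52–2.01).

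S-leaning cells of Cys held more of the mitotic genes than those of het or Bud. Of the 22 G2 and M phase members, 14 were higher and 1 lower, Plk1, in Cys against het, beside 18.1% higher and 18.6% lower among 10132 other genes, with a median log2 ratio of 0.65. Against Bud 13 were higher and none lower, beside 17.4% higher and 16.1% lower among 10245 other genes, and against WT 5 were higher and 1 lower, beside 16.4% higher and 18.3% lower among 10253. Ccnb1 had 40.8 CPM in Cys, 18.9 in Bud, 15.6 in het and 19.4 in WT S-leaning cells, and Cenpa, the centromeric histone, had 53.4 in Cys, 26.8 in Bud, 16.3 in het and 24.1 in WT. In G2/M-leaning cells of Cys against WT, 10 of the 22 were lower and none higher, beside 15.8% lower and 15.5% higher among 9240 other genes. Top2a there had 300.3 CPM in Cys against 763 in WT (2.54-fold lower, 2.16–2.998). In the same kind of cells 5 were lower and none higher against het, beside 15.7% lower and 17.2% higher among 9510 other genes. Against Bud 6 were lower and none higher there, beside 14% lower and 17.2% higher among 9439. In S-leaning cells the 5 members higher against WT were near the 16.4% of other genes. The 10 lower against WT in G2/M-leaning cells were above their 15.8%. Balanced cells made up 33.5% in Cys, 22.6% in Bud, 20.4% in het and 32.9% in WT. Cells near the cut for S-leaning, on either side of it, numbered 25 in Cys, 15 in Bud, 16 in het and 15 in WT. The S-leaning cells themselves numbered 73 in Cys, 86 in Bud, 70 in het and 79 in WT, and the part of cells near the cut was not tested. With every cell given equal weight, 8 in place of 14 members were higher in Cys than in het.

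**Figure D5:**
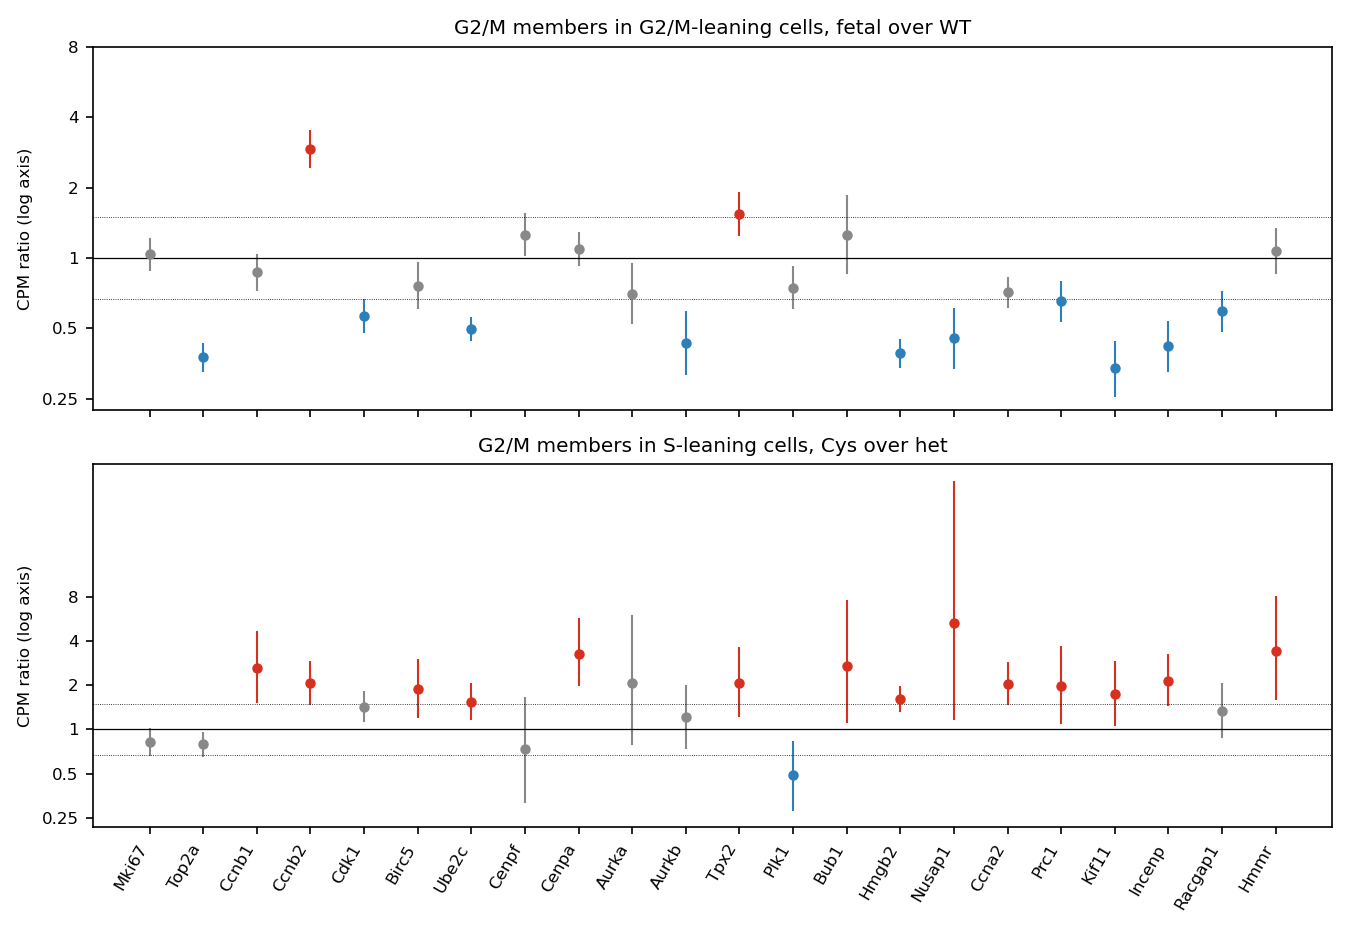
Ratio of CPM (log axis) for each G2 and M phase member with its 95% counting interval, in G2/M-leaning cells of fetal over WT (upper panel) and in S-leaning cells of Cys over het (lower panel); red marks members called higher, blue lower and grey neither, and dotted lines mark 1.5-fold. In the upper panel Ccnb2 lies at 2.92 and Top2a at 0.375, and in the lower panel 14 of the 22 members lie in the called range above 1.

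The share of cells with at least 1 UMI was lowest in fetal for both lists. After thinning, the median share over the S phase members was 18.1% in fetal, 31.8% in Cys, 38.9% in Bud, 29.3% in het and 38.4% in WT, and over the G2 and M phase members 16.8% in fetal, 21.3% in Cys, 18.7% in Bud, 20.7% in het and 23.9% in WT. The shares were set beside those in enterocyte-high cells, which were taken to hold little of these genes. Neither list was high in 13 of 18 such cells in Bud, 62 of 77 in het and 29 of 45 in WT. The remaining ones had a high list, so they are not a background free of these genes. There were 18 in Bud, 77 in het and 45 in WT, and none in fetal or Cys, and their median depth before thinning was 15073.5 UMIs in Bud, 17409 in het and 18287 in WT, against 16189.5, 13905 and 16364 in the other cells of the same libraries. Cdc6 was found in 8.37% of het and 19.5% of WT cells, against 2.597% and 2.22% of their enterocyte-high cells. Pcna was found in 86.1% of Bud, 73.3% of het and 85.9% of WT cells, but also in 77.8%, 59.7% and 75.6% of their enterocyte-high cells. Ccnb2 in WT was found in 24.1% of all cells and 28.9% of enterocyte-high ones, and Tpx2 in 21.8% and 22.2%. These WT shares are thus not read as a count of cells that express the gene, and how much of them is background was not tested. In fetal cells the shares were 40.1% for Ccnb2 and 21.8% for Tpx2.

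Other genes of the same processes were read from lists chosen by function. Of 40 further replication genes, 29 were lower and 1 higher (Orc4) in fetal against WT, 16 lower and none higher in Cys against WT, 14 lower and none higher in het against WT, and none was called in Bud against WT. The shares over all genes, in the same order, were 22.3% lower and 29.4% higher, 22% and 17.6%, 8.83% and 8.43%, and 8.67% and 5.79%. Against het, 6 were higher and none lower in Bud, beside 8.94% higher and 11.7% lower over all genes. In Cys against het 4 were lower and none higher, below the 21.3% lower and 18.9% higher over all genes. Rpa2, a subunit of the protein that coats single-stranded DNA, had 16.4 CPM in fetal, 54.0 in Cys, 62.1 in het and 105 in WT. Pold1, the catalytic subunit of polymerase delta, had 25.3 CPM in Cys, 59.3 in Bud, 51.4 in het and 68.9 in WT, and Rfc3, of the clamp loader, had 36.1 in Cys, 75.3 in Bud, 68.0 in het and 90.7 in WT. In Cys these 2 partners of Pcna were thus lower than in all 3 other small intestinal libraries.

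Of 36 further mitosis genes measured, 20 were lower and 5 higher in fetal against WT, 6 lower and 4 higher in Cys against WT, 5 lower and none higher in het against WT, and 3 lower and none higher in Bud against WT. In Cys these counts are below the 22% lower and 17.6% higher over all genes. In fetal the lower count is above 22.3% and the higher count below 29.4%. Over all genes 8.83% were lower and 8.43% higher in het against WT. In Bud against WT these shares were 8.67% and 5.79%, with the lower count of mitosis genes near its share. Ckap2, a microtubule protein, had 111 CPM in Cys, 54.3 in Bud, 41.6 in het and 47.8 in WT. Kif23, a motor of the midbody, had 120.05 CPM in Cys, 63.8 in Bud, 71.2 in het and 71.4 in WT. Espl1, the protease that parts sister chromatids, had 10.6 CPM in fetal, 15.3 in Cys, 35.5 in Bud, 18.0 in het and 42.6 in WT. Ckap2 and Kif23 were higher in Cys than in each of the other small intestinal libraries, and Espl1 was lower in fetal, Cys and het than in WT. In cells placed by the 38 members, 32 of these 36 genes were on the G2/M side in all 5 libraries and none on the S side. Of the 40 replication genes, 12 were on the S side in all 5, and Dbf4, which activates the kinase Cdc7, was on the G2/M side in all 5.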

How the data were processed

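Single organoid cells sorted into 384-well plates were read by SORT-seq, 1 plate per group. Per the submitters' processing notes, the tools were STAR 2.6.1, featureCounts 1.5.2 and Seurat 4.1.0 with build GRCm38; strand and multi-mapping handling are not given in the sources used here. The values used were the UMI counts per gene and well that the authors deposited, not normalized. A table of transcripts that the authors deposited, holding estimated counts corrected for UMI saturation, was used as an alternative, and the deposited read table was not used.

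Wells with at least 1000 UMIs were kept and their counts summed per library, giving totals of 4035219 to 5865507 UMIs, and CPM with exact Poisson intervals. Genes with at least 10 UMIs over both libraries were compared by the ratio of CPM with an exact conditional binomial interval at 95%. A gene was called at a 1.5-fold difference with an interval that excluded 1. Log2 ratios used 10 CPM added. With 1 library per group there is no test and no p-value. Cells were thinned to 5000 UMIs for classes, with exact (Clopper-Pearson) intervals for shares, and the list minimum was 10 UMIs. No doublet caller was run. CPM within leaning cells used unthinned UMIs. The scripts were tested on simulated data.

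The members and gene lists were chosen with earlier results of these data known. Genes outside the 38 were named by size, up to 4 per list and comparison, from genes of at least 20 CPM. Alternatives were 3000-UMI wells, other UMI minimums, 1 CPM added, TMM factors (edgeR 4.0.16) and DESeq2 1.42.0 size factors, equal weight per cell, leaving out wells of over 100000 UMIs or over 2% Kcnq1ot1, and other thinning and class minimums. Wells of at least 5000 UMIs and the alternatives within leaning cells were added after seeing the data. Python 3.11.15, numpy 2.4.6, scipy 1.17.1, pandas 2.3.3, matplotlib 3.10.9 and R 4.3.3 were used.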

Additional observations from a re-analysis of the deposited data

How the results depend on the processing

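No called member changed direction under the alternatives run. All median log2 ratios of both lists moved by less than the typical counting spread of a single member. That bound is loose for a median over a whole list, so it does not show that the medians were stable. Near 0, 10 of 154 such medians changed sign, all in Cys against het, Cys against Bud or Bud against het and of at most 0.06 in the values reported (to −0.17 for the G2 and M phase list in Cys against het with equal weight), as did 114 of 2926 log2 ratios of single members, all of them uncalled. Giving every cell equal weight moved counts of calls most. With it, 7 members were lower in Bud, 16 in Cys and 14 in het against WT, beside 12.7%, 26.2% and 13.3% of all genes. Against WT, 1 was higher in het and 2 in fetal, beside 13.2% and 29.8% of all genes. Against het, 3 were lower in Bud and 3 in Cys, beside 15.8% and 25.4% of all genes. Cys against Bud then had 0 higher and 7 lower, beside 19% and 23.4% of all genes. In S-leaning cells of Cys against het 8 G2 and M phase members were higher, with no share over other genes taken. The ratio of the S phase sum to the other became 0.804 in fetal, 1.03 in Cys, 1.15 in Bud, 0.923 in het and 1.10 in WT, so that Cys crossed 1. Without wells of over 100000 UMIs that ratio was 1.02 in Cys. Then 3 members were lower in Cys against het and 6 in Cys against Bud, beside 21.9% and 20% of all genes. The transcript table gave 1 lower in Cys against het and 4 in Cys against Bud, beside 22.2% and 20.5% of all genes. Without Kcnq1ot1-rich wells 1 member was lower in Cys against het, beside 21% of all genes. TMM factors gave 1 higher in Cys against WT and 1 lower in Cys against Bud, beside 20.5% and 18% of all genes. DESeq2 size factors gave 1 higher in Cys against WT and 0 lower in Cys against Bud, beside 20.5% and 17.7%. In wells of at least 5000 UMIs, 2 were higher in Bud against het and 1 lower in Cys against het, beside 9.01% and 20.9%. Cells with neither list high made up 48.6% in fetal, 29.4% in Cys, 20.9% in Bud, 32.3% in het and 18.6% in WT at a minimum of 5 UMIs. At a minimum of 20 UMIs they made up 82.2% in fetal, 73.8% in Cys, 66.1% in Bud, 65.7% in het and 53.6% in WT, with Bud then above het, and without thinning 43.4% in Bud, 53.8% in het and 38.1% in WT. The cause was not tested. No paired analysis was possible because each group has 1 library and the labels number no replicates. For the same reason no library could be left out, and plate and group cannot be told apart.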

Other observations

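A further list held cyclins, cyclin-dependent kinases and transcription factors of the cycle. Of its genes, 5 of 15 measured (Ccnd3, E2f1, E2f7, E2f8 and Foxm1) were lower and none higher in het against WT. Over all genes 8.83% were lower and 8.43% higher, and 4 of 16 S phase members were lower and none higher. Ccnd1 and Ccnd2 took another order. Ccnd1, a cyclin that carries growth signals into the cycle, had 1068 CPM in fetal, 528 in Cys, 267 in Bud, 222 in het and 199 in WT, and was called higher in fetal and Cys than in WT. Ccnd2, a related cyclin, had 568 CPM in fetal, 1651 in Cys, 878 in Bud, 729 in het and 700.3 in WT, and was called higher in Cys than in WT, het and Bud. Cdk4, the kinase both cyclins bind, had 362 CPM in Cys against 695 in WT and was called lower. E2f2, a transcription factor of the E2F family, had 2 UMIs in fetal (0.341 CPM), 4.82 CPM in Cys, 36.7 in Bud, 26.6 in het and 35.9 in WT. Of 15 such genes measured, 2 were higher and 5 lower in fetal against WT, beside 29.4% higher and 22.3% lower over all genes. Of 16 measured in Cys against WT, 2 were higher and 3 lower, beside 17.6% and 22%.

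Cdkn1a, which encodes the CDK inhibitor p21, had 551 CPM in fetal, 474 in Cys, 159 in Bud, 155 in het and 188 in WT, and was called higher in fetal and Cys than in WT. In Bud, het and WT it was highest in cells with neither list high, at 325 CPM in Bud, 284 in het and 401 in WT, against 91.0 in Bud, 43.0 in het and 99.6 in WT where both lists were high. In fetal and Cys it was higher in cells with both lists high, at 661 CPM in fetal and 697 in Cys (653 in Cys without the largest well, which is in that class), against 540.05 in fetal and 399.8 in Cys where neither was. With the S phase list high alone it had 486 CPM in fetal and 415 in Cys. With the G2 and M phase list high alone it had 586 in fetal and 338 in Cys. It was thus not higher in every class with a high list. Rb1, the retinoblastoma gene, had 16.03 CPM in fetal, 24.1 in Cys, 22.6 in Bud, 43.5 in het and 49.6 in WT, and was called lower in fetal, Cys and Bud than in WT. Of the 12 cycle inhibitors measured, 6 were higher and 4 lower in fetal against WT, beside 29.4% higher and 22.3% lower over all genes. In Cys against WT 3 were higher and 3 lower, near the 17.6% and 22% over all genes.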
